A study of Mus musculus with 4 samples.

Results

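Stathmins and other genes of neuronal differentiation were followed in cardiac neural crest cells (NCCs) with and without integrin-linked kinase. The set holds 7 genes, Stmn2, Stmn3, Tubb3, Sncg, Elavl4, Rtn1 and L1cam. They were selected on the same contrast that is described below: each is named alone for a probe set, a group of short probes against a transcript, in the table of genotype differences that the authors made from these arrays. Of the 542 genes named alone in that table these are 7, and all 11 of their listed probe sets were used, out of 45037 probe sets on the array. Stmn2 and Stmn3 had 2 probe sets each, Elavl4 had 3, and the remaining 4 genes had 1 each. Their genotype differences are therefore given as a description, without a test.

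RNA came from NCCs of the outflow tract (OFT), the vessel that leaves the embryonic heart, of mouse embryos at E10.5. The 4 arrays comprised 2 from NKO mutants, in which Wnt1-Cre deletes both floxed ILK alleles (Wnt1-Cre; ILK f/f), and 2 from controls, which the sample labels call wild type and the study's methods describe as littermates with Wnt1-Cre and a single floxed allele (Wnt1-Cre; ILK f/+). Wnt1-Cre acts in the dorsal neural tube and in the crest cells that leave it, which form peripheral neurons and glia as well as mesenchyme. Cells were sorted for the activity of a lacZ reporter with a fluorescent substrate, and RNA was extracted after pooling, first of OFTs of a genotype and then of cells from several sorts. The sources used do not say how the pools were divided between the replicates. The standard errors (SE) come from a model that draws the spread of each probe set toward that of all probe sets. They rest on these samples only.

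Young neurons build an axon from microtubules whose ends grow and shrink at the growth cone, the motile tip. Stathmin proteins bind tubulin and destabilize microtubules, and the forms encoded by Stmn2 and Stmn3 are found mainly in neurons. Neuronal RNA-binding proteins, membrane proteins of the axon and synucleins are made as the cell leaves the cycle, so genes of this kind are used as general markers of differentiating neurons.

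All 7 genes were brighter in each NKO sample than in either control, from 1.34-fold for L1cam to 3.04-fold for Sncg as ratios of mean intensity. In all 11 probe sets both NKO arrays lay above both controls, a pattern shown by 24.2% of the probe sets on the array. On the scale used for differences, log2 of intensity plus 16, 7 of the 11 probe sets and 4 of the 7 genes by their brightest probe set (Stmn2, Stmn3, Sncg and Elavl4) were at least 1.5-fold higher in NKO, against 0.286% of all probe sets. Since the choice of genes fixed this direction, nothing is read from either count. The median difference over the 7 genes, by brightest probe set, was 0.60 on the log2 scale, and that over all probe sets was 0.01. A moderated linear model (limma) with Benjamini-Hochberg adjustment called 0 of 45037 probe sets (0%), with a lowest adjusted p of 0.276 and 3972 probe sets at an unadjusted p below 0.05. In sorted bulk samples, more neurons and more RNA of these genes per cell cannot be told apart.

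**Figure D1:**
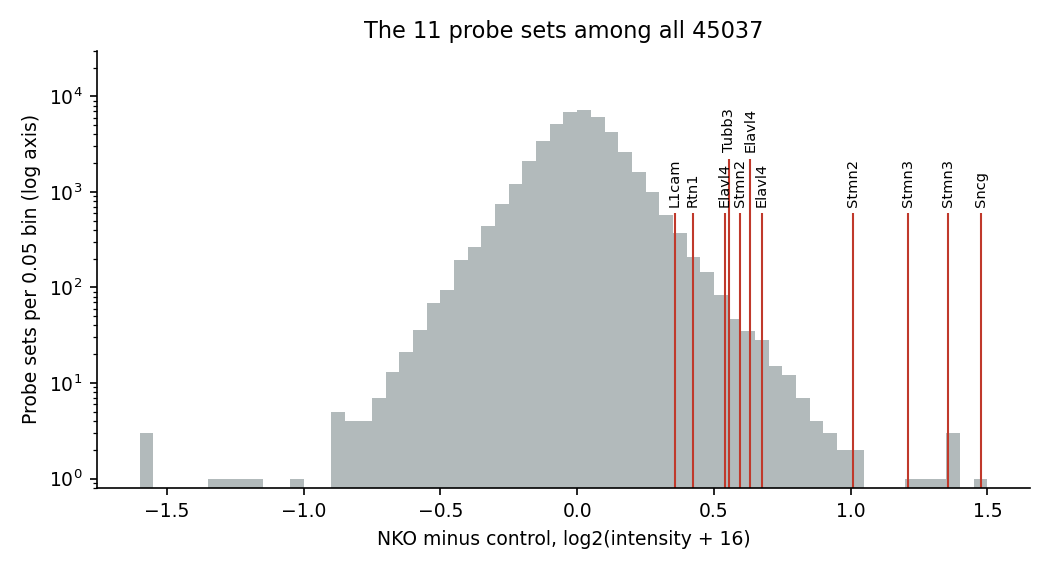
Number of probe sets (log axis) in each 0.05-wide bin of the NKO minus control difference in log2(intensity + 16), over 45037 probe sets, with red lines at the 11 probe sets of the 7 genes. The lines run from 0.36 for L1cam to 1.48 for Sncg, all to the right of the bulk of the array, whose 5th to 95th percentiles span -0.23 to 0.26.

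The sorted samples matched their labels in the direction of the deleted gene, though its signal was not lost. Ilk read 809.5 and 800.7 in the controls, against 467.7 and 386.7 in NKO, a difference of -0.90 (SE 0.11, n = 2 per genotype) on the log2 scale. The mean in NKO was 0.53 of that in the controls, and the source of this remaining signal was not tested. Median intensity lay between 75.9 and 79.3 on the 4 arrays, and arrays correlated pairwise at 0.995 to 0.997 over all probe sets. Of 19 fixed markers of migratory crest and crest mesenchyme, 3 (Pax3, Msx2 and Prrx1) were named in the authors' table. Their summed intensity was 4592 to 4773 in the controls and 5547 to 5592 in NKO. Most of the sum was Prrx1, with a mean of 3991 in the controls and 4707 in NKO. The differences were 0.44 for Pax3, 0.28 for Msx2 and 0.24 for Prrx1 on the log2 scale. The remaining 16 markers were not analysed here.

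Promoters of these genes were read for short words: E-boxes, a TATA word and parts of the element read by the repressor REST. RefSeq start sites (GRCm38.p6) gave 12 windows for 6 of the genes, all but Stmn2, each from 250 bases before a start to 50 after it. The E-box word CAGATG, which reads CATCTG on the other strand and is bound by basic helix-loop-helix factors such as those of the Neurod family, lay in 8 of the 12 windows and in 5 of the 6 genes, Stmn3, Sncg, Elavl4, Rtn1 and L1cam. Among all 32851 windows 17.2% held it, and among all 27025 genes 19.2% had a window with it. Genes with several start sites had more windows in which to find a word, and overlapping windows of Elavl4 and of L1cam share a site. A match describes the letters only. One site of each gene is printed below, 5′ to 3′ on the gene's strand, which is the minus strand of each chromosome, to show the E-box words (capitals) in their surroundings. Elavl4 carried this word next to a second E-box, CAGCTG, which reads the same on both strands.
Stmn3 (chr2:181314543-181314602): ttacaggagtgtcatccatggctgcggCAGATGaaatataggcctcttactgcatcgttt
Sncg (chr14:34374670-34374705): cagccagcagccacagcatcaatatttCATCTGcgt
Elavl4 (chr4:110287534-110287593): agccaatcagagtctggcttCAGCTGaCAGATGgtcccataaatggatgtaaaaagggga
Rtn1 (chr12:72409222-72409281): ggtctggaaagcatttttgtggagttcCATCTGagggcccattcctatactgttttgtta
L1cam (chrX:73880892-73880951): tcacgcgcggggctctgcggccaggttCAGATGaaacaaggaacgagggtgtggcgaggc

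In Sncg, the gene with the highest difference, the word began at -9 from the start. In Stmn3 it began at -75, in Rtn1 at -200, in Elavl4 at -39 or -55 and in L1cam at -134 or -90, each site lying in 2 overlapping windows of its gene. Another of the 4 Elavl4 windows held a separate site at -101. The other E-box, CAGCTG, lay in 2 of the 12 windows, both of Elavl4, against 16.3% of all windows. Searched on both strands like the others, the TATA word TATAAA lay in 0 of the 12, against 13.6%. Of the parts of the element read by the repressor REST, the word CAGCACC was found in 1 window, of Tubb3, against 7.14% of all windows. The word GGACAG was found in 3 windows, of Tubb3 and Rtn1, against 22.2%.

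Stmn2 encodes stathmin-2, also known as SCG10, a membrane-anchored stathmin of growth cones. Its brighter probe set (1423281_at) read 342.8 and 348.5 in the controls and 555.8 and 506.8 in NKO, a difference of 0.60 (SE 0.07) on the log2 scale. The dimmer probe set (1423280_at) read 111.1 and 110.6 in the controls and 238.7 and 239.3 in NKO, a difference of 1.01 (SE 0.06). Both probe sets separated the genotypes, and the replicates of the dimmer one almost coincided. The brighter one lay just above the 1.5-fold line, which is 0.585 on the log2 scale, and its difference ranged from 0.53 to 0.66 when each array was left out in turn.

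Stmn3 encodes stathmin-3, also known as SCLIP, a close relative of stathmin-2. The brighter probe set (1435113_x_at) read 119.7 and 120.1 in the controls and 343.2 and 321.3 in NKO, a difference of 1.36 (SE 0.06). This was the 4th highest of all 45037 probe sets on the log2 scale used here. The suffix _x_at marks a probe set with probes that may also match other sequences. The second probe set (1460181_at), without that mark, read 56.8 and 75.0 in the controls and 182.0 and 163.3 in NKO, a difference of 1.21 (SE 0.14). Both probe sets placed NKO far above the controls, while the dimmer one had the widest gap between controls of any of the 11, 0.32 on the log2 scale. Of the 4 genes of the stathmin family list, Stmn2 and Stmn3 were the only ones named in the authors' table.

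Tubb3 encodes class III β-tubulin, the β-tubulin used to stain neurons. It read 355.2 and 361.9 in the controls and 557.6 and 512.3 in NKO. Every NKO value was above every control value, by at least 0.48 on the log2 scale. The difference between the genotype means was 0.56 (SE 0.07), which placed the gene just below the 1.5-fold line. Without the second NKO array the difference was 0.61, past that line. With any other array left out it lay between 0.50 and 0.57, below the line.

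Sncg encodes γ-synuclein, a small protein abundant in peripheral sensory and motor neurons. It read 111.4 and 116.2 in the controls and 354.6 and 337.0 in NKO. Replicates of both genotypes lay close together, and the groups stood far apart. The difference of 1.48 (SE 0.06) ranked first among the 45037 probe sets on the log2 scale used here. It stayed between 1.44 and 1.51 with each array left out in turn. The rank depended on the offset added before the logarithm. With an offset of 1, Prph (described below) had a larger difference, 1.68 against 1.59 for Sncg. With an offset of 64, Prph had a smaller one, 0.80 against 1.20 for Sncg. As a ratio of mean intensity, Prph was higher, at 3.30-fold against 3.04-fold for Sncg.

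Elavl4 encodes HuD, an RNA-binding protein that stabilizes transcripts of neuronal genes. Its brightest probe set (1452894_at) read 148.2 and 146.3 in the controls and 254.8 and 235.3 in NKO, a difference of 0.68 (SE 0.07). A second probe set (1428741_at) read 118.7 and 109.6 in the controls and 200.9 and 171.6 in NKO, a difference of 0.63 (SE 0.10). The third (1450258_a_at, a set that matches several transcripts of the gene) read 89.2 and 84.0 in the controls and 147.0 and 120.4 in NKO, a difference of 0.54 (SE 0.11). NKO was above the controls in each of the 3, and the first NKO array was above the second in each. The gap between the NKO arrays reached 0.26 on the log2 scale in the third probe set, the widest of the 11.

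Rtn1 encodes reticulon-1, a protein that shapes the endoplasmic reticulum of neurons and neuroendocrine cells. It read 230.9 and 231.3 in the controls and 313.9 and 316.1 in NKO, a difference of 0.42 (SE 0.06). Replicates differed by at most 0.01 on the log2 scale, less than the medians over all probe sets of 0.08 in the controls and 0.10 in NKO. With 2 arrays per genotype, such a narrow spread is poorly known and does not settle how firm the modest difference is.

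L1cam encodes an adhesion molecule of the immunoglobulin superfamily on growing axons, and is also made by migrating crest cells of the gut. It read 83.1 and 79.1 in the controls and 106.1 and 110.4 in NKO. The groups did not overlap, but the difference of 0.36 (SE 0.06) was the smallest of the 11. Larger differences were found in 916 probe sets, of which 747 were not in the authors' table, so the table did not take probe sets by this measure alone. The probe sets that the table lists as higher ran from 0.21 to 1.48.

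**Figure D2:**
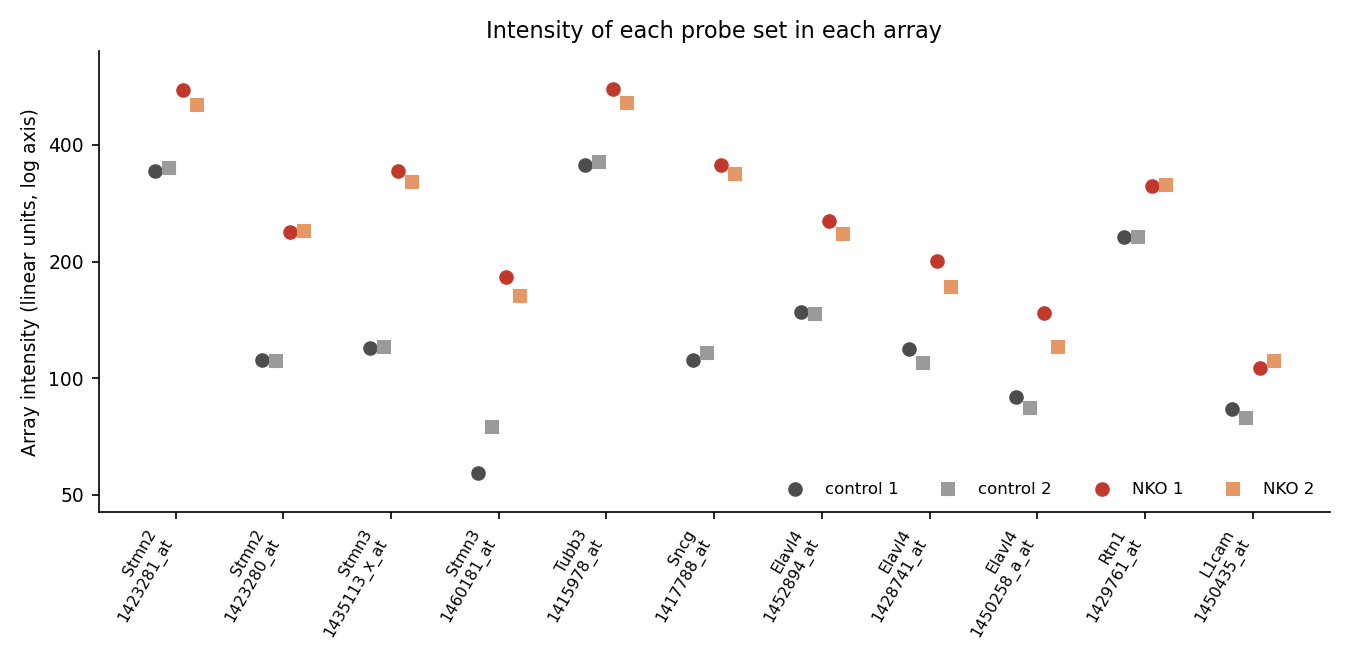
Array intensity (linear units, log axis) of each of the 11 probe sets, with a point for each of the 4 arrays: control 1 and 2 in greys, NKO 1 and 2 in red and orange. In every probe set both NKO points sit above both control points, widest apart in Sncg and Stmn3 and closest in L1cam.

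**Figure D3:**
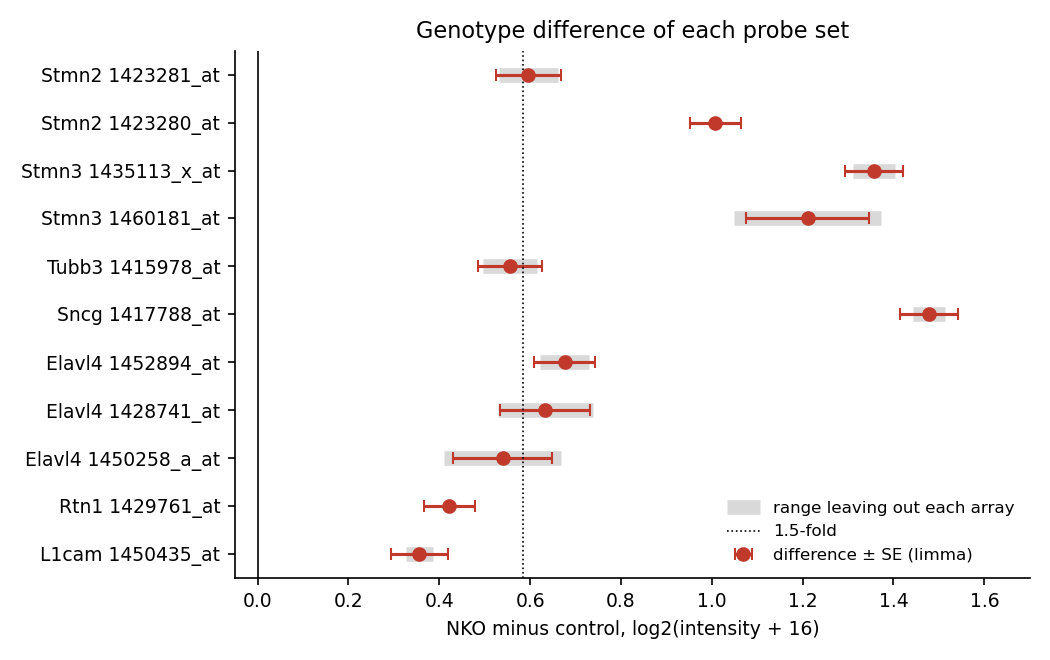
NKO minus control difference in log2(intensity + 16) of each probe set, as a point with its SE from limma over 2 arrays per genotype, a grey bar for the range with each array left out in turn, and a dotted line at 1.5-fold. The points run from 0.36 for L1cam to 1.48 for Sncg, and the grey bars of the brighter Stmn2 probe set, of Tubb3 and of 2 Elavl4 probe sets cross the dotted line.

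Replicates of the 7 genes lay close together in the controls and farther apart in NKO. The controls differed by a median of 0.03 on the log2 scale over the 11 probe sets, and the NKO samples by a median of 0.11. Over all probe sets these medians were 0.08 and 0.10. The first NKO array was above the second in 8 of the 11 probe sets, all but the dimmer Stmn2 set, Rtn1 and L1cam, and in 56.1% of all probe sets. Probe sets for 18S ribosomal RNA were also higher on the first NKO array, by a median of 1.03 on the log2 scale. The part of this in the 7 genes was not tested.

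Probe sets of the same gene gave the same direction but not always the same size. In Stmn2 the brighter minus the dimmer set, on the log2 scale, came to 1.498 and 1.525 in the controls, against 1.167 and 1.034 in NKO. The genotypes did not overlap in this measure, which means that the dimmer set differed more between genotypes than the brighter one, by 0.41 on the log2 scale. In Stmn3 the same measure came to 0.90 and 0.58 in the controls, against 0.86 and 0.91 in NKO, so the genotypes overlapped. In Elavl4 the first set minus the second came to 0.29 and 0.37 in the controls, against 0.32 and 0.42 in NKO, again overlapping. The first Elavl4 set minus the third came to 0.64 and 0.70 in the controls, against 0.73 and 0.88 in NKO, without overlap but with a shift of only 0.14. The spread between sets of a gene was thus largest in Stmn2.

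**Figure D4:**
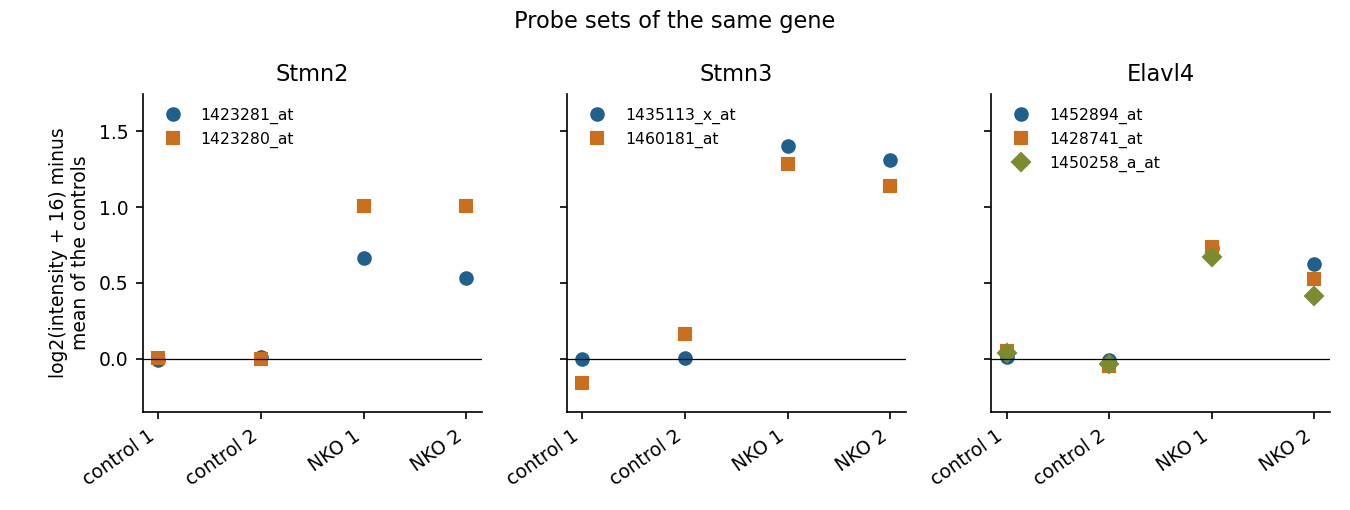
log2(intensity + 16) of each probe set on each of the 4 arrays, minus its own mean over the 2 controls, for the 3 genes with several probe sets. The Stmn2 sets part in NKO, the dimmer one (1423280_at) lying about 0.41 above the brighter, while the Stmn3 and Elavl4 sets stay closer together.

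Other genes of the same families and of young axons were taken from 8 lists with 62 genes. The authors' table named 16 of these, the 7 genes described and 9 others, and the other 46 were not analysed here. All 9 were higher in NKO, with a median of 0.37, and 3 were at least 1.5-fold higher. Being in that table selects on the same contrast, so this too is a description. Of the 766 probe sets in the table, 19 were array controls, and 469 of the rest were higher in NKO. Neurofilament and related subunits had the widest differences: Prph (peripherin, of peripheral neurons) 1.32 (SE 0.11), Nefm 0.99 (SE 0.06) and Nefl 0.82 (SE 0.06). Ina (α-internexin) had 0.39 (SE 0.07) in its brightest probe set and 0.68 and 0.60 in its other sets. Dcx (doublecortin, a microtubule-binding protein of migrating neurons) had 0.37 (SE 0.09) and Crmp1 (a growth cone protein) had 0.26 (SE 0.06).

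Within the family lists, only Elavl4 and Rtn1 had a relative outside the 7 genes in the authors' table, and each relative lay lower. Elavl2, which encodes HuB, had a difference of 0.30 (SE 0.06) against 0.68 for Elavl4, and Rtn4, which encodes the axon growth inhibitor Nogo, had 0.31 (SE 0.06) against 0.42 for Rtn1. Gng3, a G protein subunit of neurons, was the 1 synaptic gene of 14 in the table and had 0.35 (SE 0.07). Among transcription factors of neurons, 5 of 21 were in the table, all higher in NKO: Pou4f1 at 0.96, Neurod1 at 0.77, Neurod4 at 0.62, Nhlh2 at 0.52 and Gata2 at 0.31 on the log2 scale. Their summed intensity was 479.5 to 493.7 in the controls and 762.5 to 773.0 in NKO. Fabp7, a fatty acid-binding protein of glial precursors and the 1 of 9 glial markers in the table, was 1.05 higher, with an intensity of 384.5 to 388.4 in the controls and 787.4 to 846.4 in NKO.

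**Figure D5:**
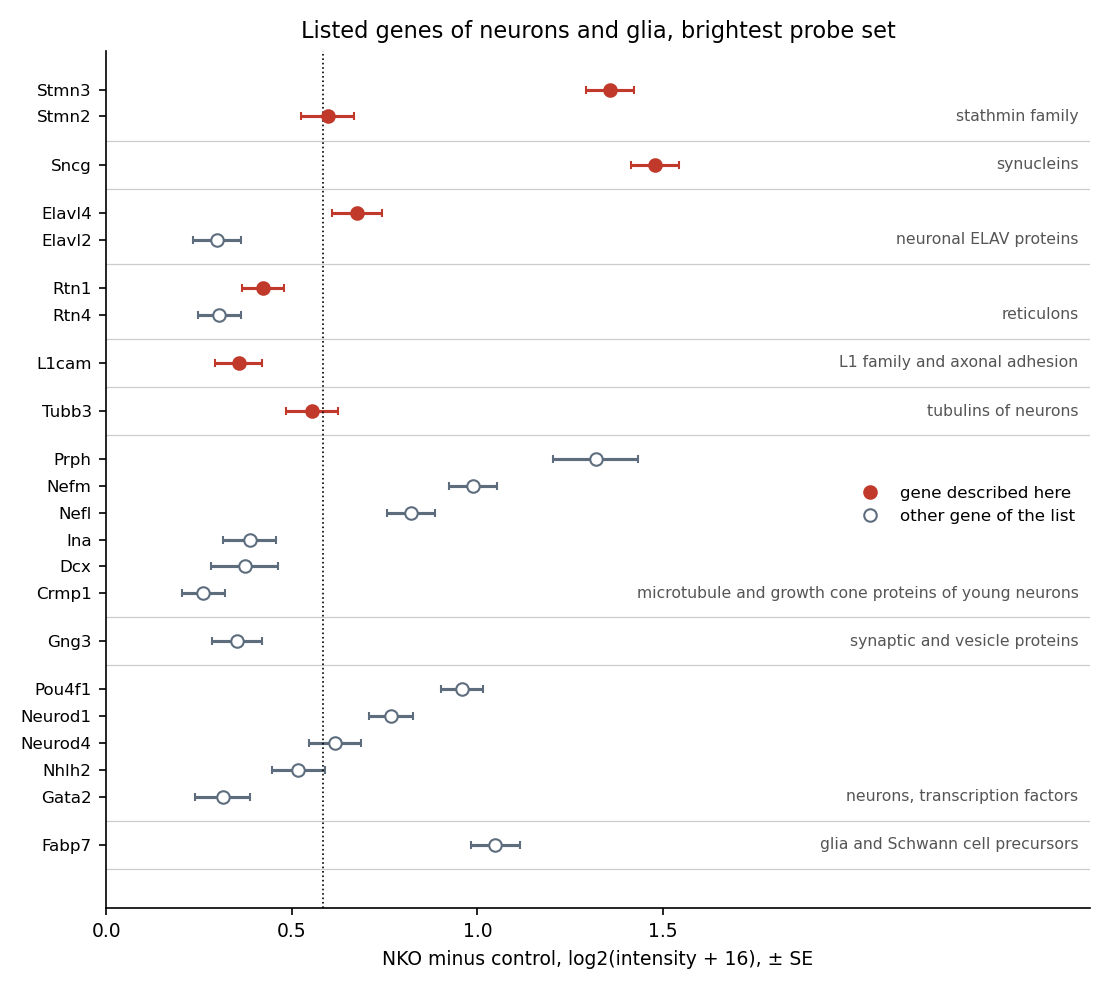
NKO minus control difference in log2(intensity + 16) with its SE (limma, 2 arrays per genotype) for the brightest probe set of each gene of the neuronal and glial lists that the authors' table names, grouped by list, with a dotted line at 1.5-fold. Filled red points are the 7 genes described and open points the other genes, all above 0, from 0.26 for Crmp1 to 1.48 for Sncg.

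Markers of other cell types differed between the same samples, and their part in the differences above was not tested. Platelet and megakaryocyte markers in the table, 9 of 12, were all higher in NKO, with a summed intensity of 2280 to 2310 in the controls and 3954 to 4050 in NKO. Myeloid markers, 4 of 11, summed to 423.9 to 434.8 in the controls and 627.0 to 669.9 in NKO. Higher sums were also found for 2 of 9 red cell markers, at 1273 to 1290 in the controls and 1502 to 1612 in NKO, and for 2 of 8 endothelial markers, at 438.0 to 451.5 and 536 to 574.0. Muscle markers went the other way. Skeletal muscle markers, 5 of 9, summed to 2554 to 2579 in the controls and 1833 to 1879 in NKO, and heart muscle markers, 4 of 8, to 6208 to 6317 and 5069 to 5197. No listed marker was at 0 on any array.

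Control probe sets on the arrays also shifted. All 18 probe sets for the hybridization controls, RNAs added to the samples before hybridization, were higher in NKO, by 0.08 to 0.31 on the log2 scale with a median of 0.22. For dap, an RNA added before labelling, all 6 probe sets were higher by 0.47 to 0.62, which is above Rtn1 and L1cam and spans Tubb3, the brighter Stmn2 set and the third Elavl4 set. Over all 24 probe sets of the RNAs added before labelling the differences ran from -0.29 to 0.71, a range that takes in all but Sncg, both Stmn3 sets and the dimmer Stmn2 set, with a median of 0.30, and 14 of them had both NKO arrays above both controls. Probe sets for actin and Gapdh differed by -0.02 to 0.04. The 3′ minus 5′ signal of actin, a measure of RNA integrity, was 0.46 to 0.52 over the 4 arrays. The part of these shifts in the 7 genes was not tested.

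Among 498 other genes, those whose pattern over the 4 arrays was nearest to the mean pattern of the 7 genes were named by distance. The mean pattern, relative to each gene's mean, was -0.39 in both controls and 0.42 and 0.36 in NKO on the log2 scale. Among the 5 nearest were Nefl at a distance of 0.063, Spp1 (osteopontin) at 0.070, Tubb1 (the β-tubulin of platelets) at 0.075 and Neurod1 at 0.076. These held both neuronal and non-neuronal genes.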

How the data were processed

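Cardiac NCCs were profiled on Affymetrix mouse genome arrays, 2 control and 2 NKO. The authors deposited linear intensity values for 45101 probe sets, made with Affymetrix Expression Console per the submitters' processing notes, by an algorithm that is not given in the sources used. The labels and the methods differ on the RNA kit and on amplification. A second deposited table holds the authors' own comparison (VAMPIRE), with fold and p-value columns that were not used. Only its gene names and its control signal, which matched the mean control intensity within 0.0447%, were used. It lists 766 probe sets, 605 of them with a single name.

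Control probe sets were left out (64), intensities became log2(intensity + 16), and limma 3.58.1 (R 4.3.3) was fitted over all 45037 probe sets without a block, with Benjamini-Hochberg adjustment. A 2-against-2 permutation test cannot go below p = 0.333. The array number limits precision. The brightest probe set stood for a gene. Genes named were all 7, the neuronal, glial and crest genes of the lists that the table holds, and the 5 nearest patterns by Euclidean distance, except 2 genes that are not reported here. Markers of other cell types are given as sums. The 7 genes and all lists were chosen with earlier results of these data known. Alternatives covered the offset, centring, quantile normalization, a brightness filter, limma's trend, the methods' t-test, each array left out, and a replicate block. Promoter windows came from RefSeq (GRCm38.p6), and 476 of the 542 names matched RefSeq symbols, all 7 genes included.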

Additional observations from a re-analysis of the deposited data

How the results depend on the processing

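All 11 probe sets stayed higher in NKO under every alternative run, but most alternatives could not have shown otherwise. Since the genotypes did not overlap in these probe sets, neither another offset nor a left-out array could reverse the direction. The replicate block left the differences as they were. Adjusted calls over all probe sets, 0 in the report, became 60 with an offset of 64, 520 (313 higher) with limma's trend and robust settings, and 52 (36 higher, of 22518) among probe sets brighter than the median, and were 0 with an offset of 1, centring, quantile normalization, each array left out, the replicate block and the methods' t-test (3973 at an unadjusted p below 0.05). Of the 7 genes, 4 were at least 1.5-fold higher, 2 with an offset of 64, 3 with centring or quantile normalization, and 3 to 5 with an array left out; without control 1 or NKO 1 the brighter Stmn2 set fell below the line. Their median of 0.60 ranged from 0.53 to 0.66 with an array left out, and was 0.54 with an offset of 64, 0.62 with an offset of 1 and 0.60 with the replicate block, under which 3440 probe sets had an unadjusted p below 0.05. The replicate numbers were not taken as pairs, since the replicate differences of the genotypes correlated at -0.03 over all probe sets. On the whole array 129 probe sets passed 1.5-fold upward and 71 downward. These counts were 1778 and 1557 with an offset of 1, 23 and 13 with an offset of 64, 110 and 87 with centring, 117 and 78 with quantile normalization, 255 and 145 without control 1, 243 and 152 without control 2, 226 and 218 without NKO 1, and 387 and 259 without NKO 2. With 2 arrays per genotype, small differences such as those of Rtn1 and L1cam rest on a spread that is poorly known.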

Other observations

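Among tubulin genes outside the lists, chosen after their values were seen, 2 were named in the authors' table. Tuba4a, an α-tubulin, read 603.3 and 582.3 in the controls, against 759.8 and 687.0 in NKO, a difference of 0.28 (SE 0.08) on the log2 scale. Tubb1, the β-tubulin of platelets, read 106.6 and 107.8 in the controls, against 191.0 and 178.8 in NKO, a difference of 0.70 (SE 0.06), against 0.56 for Tubb3.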
